A study of Mus musculus with 48 samples.

Results

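Very broad accessible regions are the ATAC-seq peaks whose listed end lies at least 4000 bp beyond their listed start on a placed chromosome. The rule used width alone, and 71 of the 53868 regions in the deposited table met it, against 53687 placed regions that were narrower. In ATAC-seq the transposase Tn5 cuts and tags DNA that is not wrapped in nucleosomes, so the number of reads in a region is a measure of how accessible it is.

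The cells were OT-1 CD8+ T cells, whose transgenic receptor recognises an ovalbumin peptide. They carried Cas9 and the CD45.1 marker, were transduced with a lentiviral guide RNA and an ametrine reporter, and were transferred into young or aged mice that then received B16-OVA melanoma. Reporter-positive cells were sorted from the tumours on day 15, and cells of independent mice were pooled into each replicate. The 48 libraries formed 21 groups, 15 of 2 libraries and 6 of 3. The guides were OTC, which the labels call a control, Zfp219 and Dusp5, both labelled as knockouts, and all groups shared the OT-1, Cas9 and tumour background. The gated states were progenitor exhausted Tprog (Slamf6+Tim-3-), transitory Ttran (Slamf6+Tim-3+), terminally exhausted Tterm (Slamf6-Tim-3+) and age-associated dysfunctional Ttad (Slamf6-Tim-3-). Ttad libraries came from aged hosts alone. The letters A and Y of the library names were read as aged and young hosts, and the ages were not given. Column names also number the libraries from S1 to S24 once for each age. What these numbers mark is not stated, and any step done separately for the 2 sets cannot be told apart from age. Whether each guide cut its gene cannot be read from these values.

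Libraries held 5638413 to 29942755 reads in regions, with 5638413 to 16159054 in aged and 6589023 to 29942755 in young hosts. As a check of cell identity, all 18 genes of a T cell receptor and coreceptor list had a region, with a median density of 433 normalized reads per kb at the strongest region of each gene. Of the lists for other cells, a region was present at 3 of 8 melanocyte genes, 6 of 9 myeloid genes, 4 of 8 B cell genes, 2 of 3 CD4 and regulatory T cell genes and 2 of 5 NK cell genes. The median density at those with a region was 229, 183, 79.8, 332 and 165 per kb in that order, and the 332 is above the 327 of the stem-like and quiescence list. None of these 33 entries had a broad region.

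Wide stretches of open chromatin are known at the starts of genes that a cell transcribes strongly and at genes that define its identity, where promoters and nearby enhancers merge into 1 domain. Repeated sequence can also give wide regions, because reads from many copies of a repeat may be placed at the few copies that the genome assembly holds. In tumour-infiltrating CD8+ T cells the progenitor state is known for self-renewal and the terminal state for inhibitory receptors and restricted proliferation.

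The promoters of 4 genes that lie inside broad regions are shown because their regions differ in what they did. Hspa1a moved most among the gene starts, Pdcd1 encodes an inhibitory receptor, Foxo1 was higher in aged Tprog than in aged Tterm cells, and Kat2b was higher there too. The sequences run from 250 bases before to 50 after an annotated start and come from RefSeq (GRCm38.p6), with all 18 regions that hold a protein-coding start matched. Capitals mark a CCAAT box (CCAAT), a heat shock element (GAANNTTC) or an AP-1 motif (TGANTCA), each searched on both strands. Hspa1a lies at chr17:34972107-34972406 on the minus strand, Pdcd1 at chr1:94052504-94052803 on the minus strand, Foxo1 at chr3:52268087-52268386 on the plus strand and Kat2b at chr17:53566721-53567020 on the plus strand.
Hspa1a: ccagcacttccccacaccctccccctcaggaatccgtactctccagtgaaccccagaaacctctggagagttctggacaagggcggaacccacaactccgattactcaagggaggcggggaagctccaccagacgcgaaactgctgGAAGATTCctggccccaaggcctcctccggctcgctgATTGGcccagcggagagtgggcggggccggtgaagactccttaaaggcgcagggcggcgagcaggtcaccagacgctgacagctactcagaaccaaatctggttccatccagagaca
Pdcd1: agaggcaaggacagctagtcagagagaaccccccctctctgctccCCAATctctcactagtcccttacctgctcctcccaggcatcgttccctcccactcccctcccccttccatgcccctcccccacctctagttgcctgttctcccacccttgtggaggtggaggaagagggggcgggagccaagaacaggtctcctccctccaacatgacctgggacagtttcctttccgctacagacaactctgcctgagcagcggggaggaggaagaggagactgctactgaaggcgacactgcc
Foxo1: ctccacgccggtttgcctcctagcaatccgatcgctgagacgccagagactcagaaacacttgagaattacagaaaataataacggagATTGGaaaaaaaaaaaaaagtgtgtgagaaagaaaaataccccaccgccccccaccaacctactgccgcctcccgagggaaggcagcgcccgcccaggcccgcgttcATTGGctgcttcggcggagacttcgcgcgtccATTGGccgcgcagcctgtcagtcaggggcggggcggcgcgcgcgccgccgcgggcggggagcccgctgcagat
Kat2b: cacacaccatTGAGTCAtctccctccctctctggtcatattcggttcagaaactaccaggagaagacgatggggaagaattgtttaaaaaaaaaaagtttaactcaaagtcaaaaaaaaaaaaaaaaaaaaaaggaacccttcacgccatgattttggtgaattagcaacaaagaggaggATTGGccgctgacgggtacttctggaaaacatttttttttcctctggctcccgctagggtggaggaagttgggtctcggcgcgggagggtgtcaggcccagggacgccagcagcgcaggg
The Hspa1a promoter held 1 heat shock element and 1 CCAAT box with 15 CpG dinucleotides. The Pdcd1 promoter held 1 CCAAT box and 5 CpG, the Foxo1 promoter 3 CCAAT boxes and 31 CpG, and the Kat2b promoter 1 AP-1 motif, 1 CCAAT box and 11 CpG.

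Across the 30 annotated starts of 20 genes that fell inside broad regions, the median was 23.5 CpG and 66% G+C. Starts inside narrower regions (11241) had a median of 22 CpG and 62% G+C, and all 21238 protein-coding starts had 13 CpG and 56.3%. CCAAT was present in 12 of the 30 (40.0%, against 38.2% of all starts), the heat shock element in 2 (6.67% against 7.21%), AP-1 in 2 (6.67% against 6.99%) and the ETS motif CCGGAAG in 2 (6.67% against 11.6%, and 19.7% of starts inside narrower regions). RUNX (TGTGGTT) was in 1 (3.33% against 4.71%), while TCF/LEF (CTTTGAT), IRF and the CTCF core were in 0. A match describes letters only, and several starts of 1 gene overlap in sequence or share a region.

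Broad regions ranged from 4000 bp to 85862 bp, with a median of 4677 bp against 898 bp over placed regions. Most, 44, were under 5000 bp wide and the 5 widest were 10235 bp or more. They covered 491 kb, which was 0.918% of the placed width, and took 0.440% to 0.496% of a library's normalized reads. Just over the threshold lay Baz2a (4000 bp), Slc1a5 (4006 bp), Foxo1 (4022 bp), Farp1 (4034 bp) and Lcp2 (4039 bp), and just under it Trappc6b (3987 bp), Tsc22d4 (3986 bp), Rasa3 (3971 bp), Btg1 (3961 bp) and Zfp3 (3952 bp).

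Read density separated the broad regions into 2 kinds. Normalized reads per kb ran from 6.60 to 634, and 39 regions lay below the median of all placed regions, 108 per kb, while 32 lay above it. These are called sparse and dense here. The divide was chosen after the values were seen, so the counts by kind are description. The density was 6.60 to 80.3 per kb in the sparse regions (median 16.6) and 108 to 634 in the dense ones (median 327). The region nearest the divide, inside Sik3, had 108 per kb, and the next dense region, at Cdk2ap1, had 175.

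Annotation followed the same divide. Of the 32 dense regions, 18 held a protein-coding gene start, 8 held the boundary of a gene body, 3 lay inside a gene body, 1 held another annotated gene alone and 2 held none. Of the 39 sparse regions, 0 held a start or a boundary, 15 lay inside a gene body, 3 held another annotated gene alone and 21 held none. No protein-coding gene lay within 100 kb of 11 sparse regions. Width by itself was not the divide among narrower regions: 54.9% of broad regions fell below the median density, against 11.4% of regions of 3000 to 4000 bp and 12.5% of those of 2000 to 3000 bp. A protein-coding start was inside 25.4% of broad regions and 47.6% of regions of 3000 to 4000 bp.

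**Figure D1:**
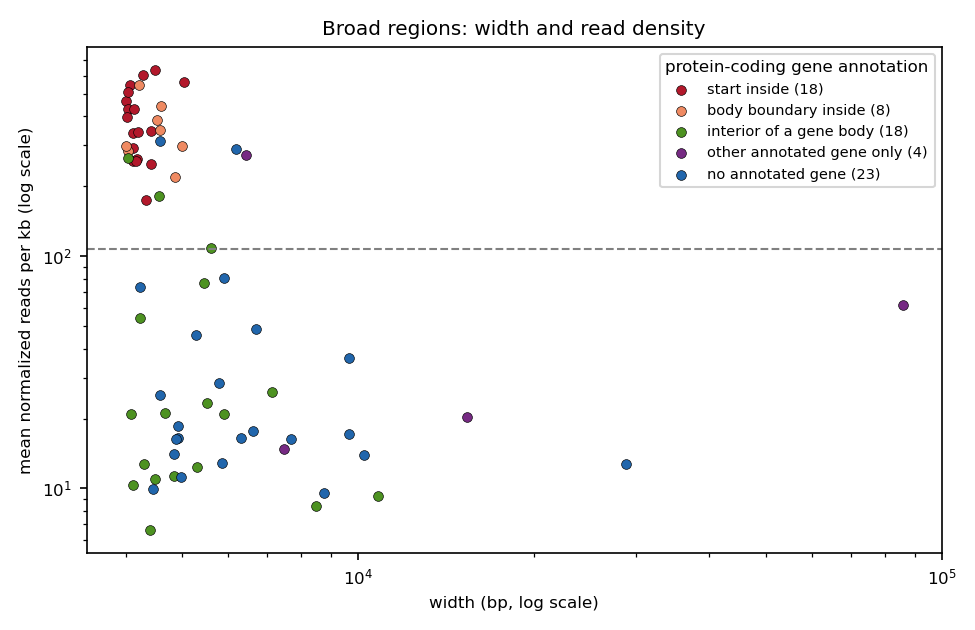
Width (bp, log scale) against mean normalized reads per kb over the 21 group means (log scale) of each of the 71 broad regions, coloured by annotation, with the median of all placed regions as a dashed line. Regions with a gene start inside lie between 4000 and 5047 bp at 175 per kb or more, and the widest regions lie below the line.

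The densest regions lay at or near the following genes. Tgif1, a homeodomain repressor in TGF-beta signalling, had 634 normalized reads per kb. It was followed by Hspa1a, the inducible Hsp70 chaperone (603), Pdcd1, which encodes the inhibitory receptor PD-1 (561), the zinc finger gene Hivep2 (549), the immediate early gene Ier2 (546), the bromodomain gene Brd2 (508), the chromatin remodelling gene Baz2a (465) and Dusp4, a phosphatase that acts on MAP kinases (443). Of 13 gene lists with 174 genes, 3 genes had a broad region: Pdcd1 among inhibitory receptors, Foxo1 among stem-like and quiescence regulators and Dusp4 among signalling brakes. The Brd2, Tap2, Hspa1a and Ier3 regions lay on chromosome 17 with gaps of 78663, 762216 and 846938 bp, in the major histocompatibility complex, where Tap2 encodes a subunit of the peptide transporter of antigen presentation. Chromosome 17 held 9 broad regions, chromosomes 8 and X 8 each, and 21 chromosomes held at least 1.

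The widest regions were of another kind. The 85862 bp region, at chr8:123538084-123623946 in mm10, held 48 annotated 5S ribosomal RNA genes, and its nearest protein-coding gene was Gas8, 1427 bp away. It is called the 5S array here. It had 61.4 normalized reads per kb, and because of its width it held more reads than any other broad region, a mean of 5273 per library over the group means. Next came a region of 28829 bp at chr7:64467005-64495834, 5726 bp from Apba2 and without an annotated gene, and one of 15355 bp on chromosome X that overlapped the long non-coding RNA 3632454L22Rik. Regions inside Ttc34 (10845 bp) and near Gm21119 on chromosome 8 (10235 bp) followed. The sparsest were inside Hrnr (6.60 per kb) and Flg2 (8.43 per kb), epidermal genes 110538 bp apart on chromosome 3, and inside Ttc34 (9.31 per kb). Near Gm21119, 3 sparse regions lay 10989 and 11276 bp apart, and 3 on chromosome X lay 5272 and 34 bp apart near 4932411N23Rik. Others were among the first regions of their chromosomes, starting at 3009455 on chromosome 17, 3079882 on chromosome 4 and 3231739 on chromosome 16.

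Levels in the dense regions were steady and those in the sparse regions were not. The range of log2 group means over the 21 groups was 0.22 to 2.30 in the dense regions (median 0.49) and 0.87 to 4.43 in the sparse ones (median 2.50). The median SD of log2 values between replicates was 0.07 in the dense and 0.25 in the sparse regions. Alcam (0.22), Dusp4 (0.25) and Ggta1 (0.26) varied least, and Hspa1a (2.30) most among dense regions. The highest of the 21 groups was aged Dusp5 Tterm in 22 of the 39 sparse regions and aged Dusp5 Ttad in 5. The lowest was young Dusp5 Tterm in 11 and young OTC Tterm in 8.

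**Figure D2:**
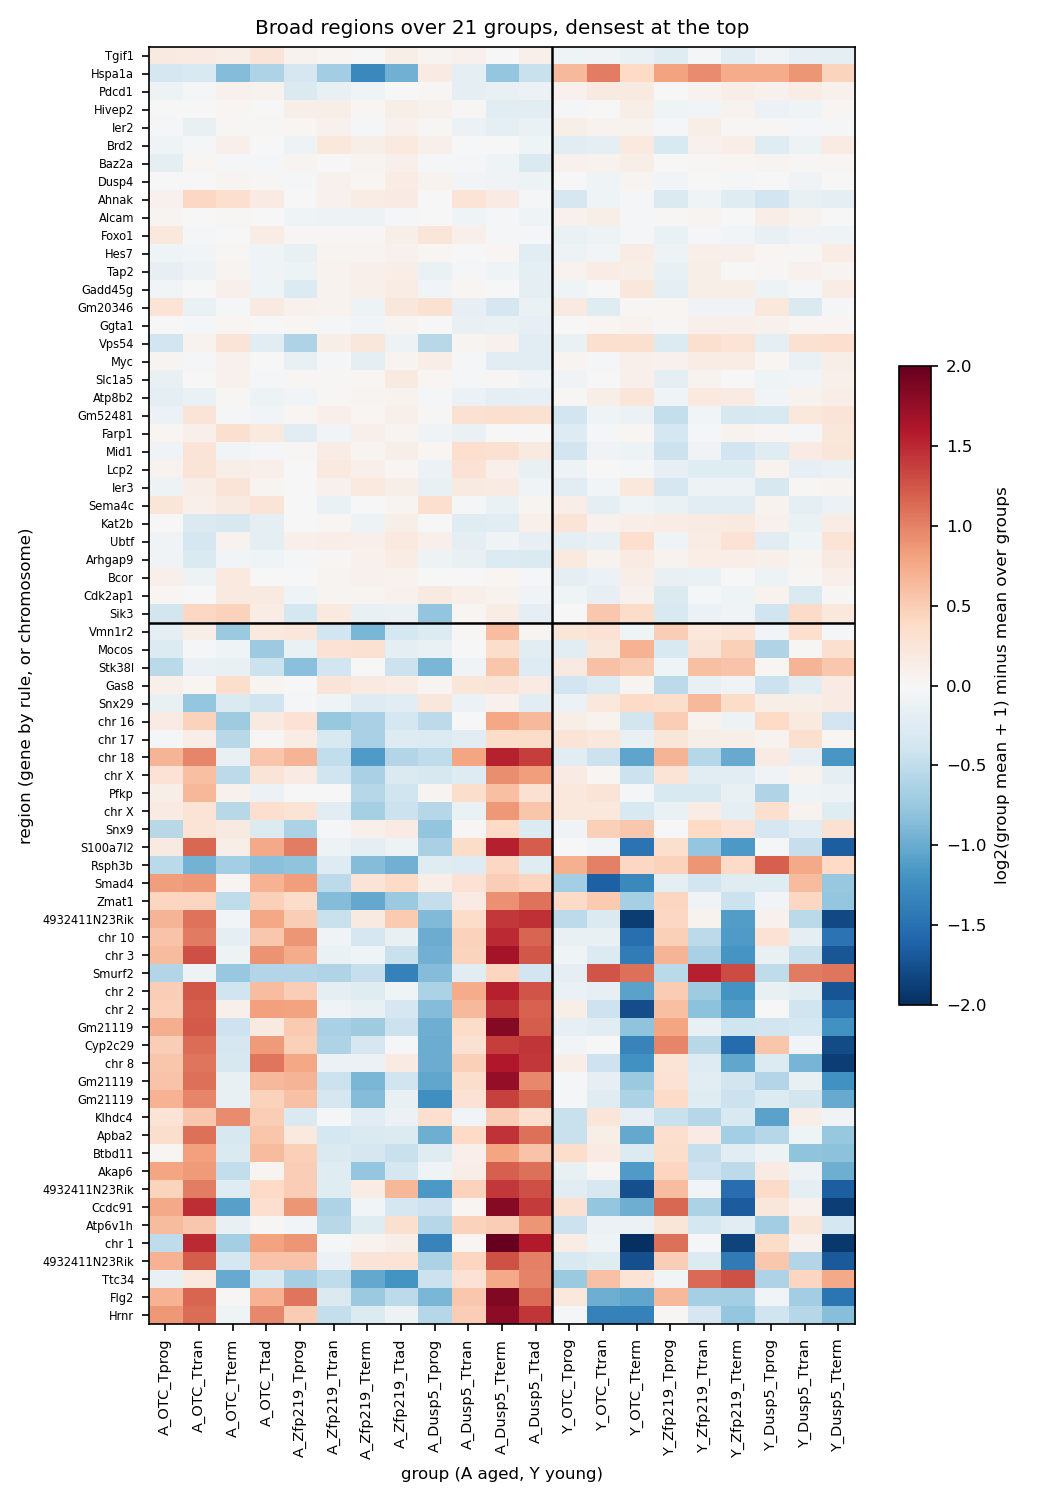
Broad regions (rows, densest at the top, with a line between dense and sparse) by group (columns, A aged and Y young), each cell showing log2(group mean + 1) minus the mean over the 21 groups, with colours saturating at 2. Dense rows are mostly pale. Hspa1a, the most variable of them, is low in aged and high in young groups, and Sik3 varies next most (log2 range 1.33). Many sparse rows share a pattern in which aged Dusp5 Tterm is highest.

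Sparse regions moved together across groups. Over the 21 group means, the median Pearson correlation of log2 values was 0.53 over 741 sparse pairs and 0.21 over 496 dense pairs; pairs share libraries and depth. The mean log2 level of the 39 sparse regions, relative to its mean over libraries, ran from -0.78 to 1.14, while that of the 32 dense regions ran from -0.14 to 0.11. By group it was highest in aged Dusp5 Tterm (1.13), aged Dusp5 Ttad (0.84) and aged OTC Ttran (0.74) and lowest in young Dusp5 Tterm (-0.72), young OTC Tterm (-0.63) and aged Dusp5 Tprog (-0.53).

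Narrower regions of low density did the same. The 930 regions under 4000 bp with a density below the median of the sparse broad regions stood at 1.17, 0.85 and 0.69 in those 3 highest groups and at -0.63, -0.60 and -0.48 in the 3 lowest. Mean depth in the same 6 groups was 9586710, 8336860, 8804210, 20279600, 20300800 and 13109000 reads in regions. The shallowest group, young Zfp219 Ttran with a mean of 7382480 reads, was not among the high ones, at -0.08 in the sparse and -0.35 in the narrower sparse regions. The part of depth or of signal in low-density sequence generally in the sparse result was not tested. Within aged Dusp5 Tterm the libraries had 13535015 and 5638413 reads in regions and sparse levels of 1.13 and 1.14. Within young OTC Ttran they had 29942755, 17002746 and 12629361 reads and sparse levels of 0.02, 0.03 and -0.11. In pooled cells, a larger share of cells with a region open and a more open region in every cell cannot be told apart.

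**Figure D3:**
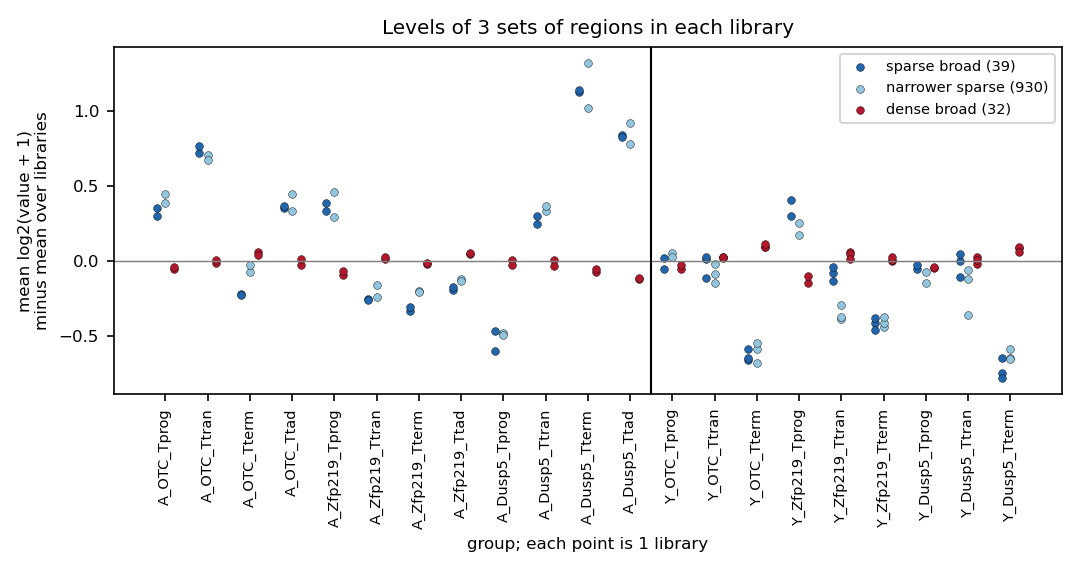
Mean log2(value + 1) of the sparse broad regions (39), narrower sparse regions (930) and dense broad regions (32) in each library (points), minus the mean over the 48 libraries, by group. Both sparse sets run from -0.72 and -0.63 in young Dusp5 Tterm to 1.13 and 1.17 in aged Dusp5 Tterm, and the dense set stays between -0.14 and 0.11.

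Differences between states were examined first in OTC cells. A region was called at an adjusted p under 0.05 in a limma fit of all 53868 regions on log2(value + 1), and all 71 broad regions entered. Comparisons below that share a group, such as aged Tterm, are not independent of one another. The 307 regions of 3000 to 4000 bp had a median level of 1092 normalized reads, against 367 in the broad regions. The share called among these 307 is given as a background closer in width. In the order in which the state comparisons follow, that share was 34.2%, 48.2%, 8.47%, 23.8%, 15.6% and 14.7%, against 45.1%, 63.4%, 40.8%, 39.4%, 23.9% and 5.63% of the broad regions. For age it was 55.05% against 69.0%. For Zfp219 it was 43.6% against 59.2% in aged hosts and 17.6% against 23.9% in aged Ttad, and for Dusp5 8.79% against 16.9% in aged Ttad. Among the 11723 narrower regions at or above the broad median level, the state shares were 26.5%, 34.7%, 4.92%, 20.3%, 9.32% and 11.4%. In that class the share was 42.5% for age and 40.1% for Zfp219 in aged hosts. In aged Ttad it was 13.5% for Zfp219 and 5.65% for Dusp5.

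In aged OTC cells, 17 of 39 sparse regions were called higher in Tprog than in Tterm cells and 9 of 32 dense regions lower. Of all regions, 20.1% were called, and of the broad regions 32, of which 21 were higher in Tprog (8.88% of all regions) and 11 lower (11.2%). The other calls were 2 sparse regions lower and 4 dense regions higher. The median log2 change was 0.73 in the sparse, -0.08 in the dense and 0.01 over all regions, while the 930 narrower sparse regions had 0.51. Of those 930, 1.40% were called higher and 0.215% lower. Against Tterm, 9.57% of them were called higher in young Tprog, 2.58% in aged Ttran, 3.98% in young Ttran and 0.968% in Ttad. The part of reads per region in these shares was not tested. The count of broad regions fell to 17, 20 and 21 without Tprog replicate 1, Tterm replicate 1 and Tterm replicate 2. With libraries scaled to their totals 23 were higher and 7 lower, and with quantile normalization 19 and 3. Under quantile normalization the dense regions turned, with 5 called higher and 2 lower and a median of 0.05, while the sparse median was 0.66. With 1 library left out, 7 to 11 sparse regions were called higher and 5 to 7 dense regions lower.

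In young OTC cells the same comparison called 45 broad regions, against 26.5% of all regions. Of these 25 were higher in Tprog (13.9% of all) and 20 lower (12.6%), with 23 and 6 among the sparse and 2 and 14 among the dense. The count was 29 without Tprog replicate 1. The median change was 0.62 in the sparse regions and -0.13 in the dense, beside 0.78 in the narrower sparse regions. The largest rise, of 2.50 ± 0.47 (SE), was in the region at 101103876 on chromosome 1, with 19.3 and 54.8 normalized reads in Tprog and 1.90, 5.504 and 10.1 in Tterm. The groups did not overlap there, but the values rest on few reads.

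Among the dense regions, those lower in Tprog than in Tterm cells at both ages included Sik3, Vps54, Ier3, Brd2, Ahnak and Farp1. In aged cells 9 dense regions were called lower in the main fit, 5 after scaling to totals and 2 under quantile normalization. Most of the aged calls of lower levels here and in the next paragraph thus depended on the scaling. In young cells the 3 counts were 14, 14 and 16. The region inside Sik3, a salt-inducible kinase gene, had 464 and 450 normalized reads in aged Tprog and 813 and 810 in aged Tterm cells. In young cells it had 641 and 546 in Tprog and 736, 704 and 835 in Tterm. Neither pair of groups overlapped, and the log2 change was -0.83 ± 0.11 (SE, adjusted p = 4.16e-09) in aged and -0.35 ± 0.10 (adjusted p = 0.00502) in young cells. The region 14330 bp from Vps54, a gene of a vesicle tethering complex, fell by 0.64 ± 0.07 and by 0.45 ± 0.07, with 1146 and 1018 in aged Tprog and 1663 and 1715 in aged Tterm cells. Brd2 fell by 0.40 ± 0.06 in young and by 0.19 ± 0.06 in aged cells. Ubtf, a factor of RNA polymerase I transcription, fell by 0.53 ± 0.08 in young cells.

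Pdcd1, whose product PD-1 restrains T cell receptor signalling, was lower in aged Tprog (2517 and 2749) than in aged Tterm cells (2929 and 3063). The groups did not overlap, with a log2 change of -0.19 ± 0.05 (SE, adjusted p = 0.00798). Pdcd1 belonged to the dense regions called lower in the main fit, most of which were not called lower under quantile normalization. In young cells Tprog had 2977 and 2990 and Tterm 3184, 3187 and 3201, which was not called. Foxo1, a transcription factor that maintains quiescent and memory T cells, was higher in aged Tprog (1893 and 1812) than in aged Tterm cells (1640 and 1541), by 0.22 ± 0.07 (adjusted p = 0.0187). Young Tprog cells had 1411 and 1498 and young Tterm cells 1490, 1624 and 1611, which was not called, and the difference between the ages was not tested. Kat2b, a histone acetyltransferase gene, was higher in aged Tprog (1035 and 1089) than in aged Tterm cells (896 and 817), by 0.31 ± 0.08 (adjusted p = 0.00359). In young cells its change was 0.13 ± 0.08, which was not called, and here too the difference between the ages was not tested.

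In the aged Ttran against Tterm comparison 29 broad regions were called, where 3.22% of all regions were. Of these 27 were higher in Ttran (1.87% of all), 24 of them sparse, and 2 lower (1.35%). The sparse median was 1.12, the narrower sparse median 0.82 and the dense median -0.09. Ttran libraries averaged 8804210 and Tterm libraries 13614100 reads in regions, and the part of depth was not tested. The count was 16 and 19 without Tterm replicates 1 and 2 and 18 without Ttran replicate 2.

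In young cells 28 regions were called between Ttran and Tterm, against 8.38% of all: 18 higher (5.02%) and 10 lower (3.36%), with a sparse median of 0.46 and a narrower sparse median of 0.51. Mean depth was 19858300 reads in young Ttran and 20300800 in young Tterm libraries. The region near Apba2 had 730 and 684 normalized reads in aged Ttran and 270 and 256 in aged Tterm cells, a rise of 1.42 ± 0.15. In young cells it had 350, 369 and 347 in Ttran and 153, 158 and 172 in Tterm, a rise of 1.14 ± 0.12. No library of either state reached the other state's range at either age.

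In Ttad cells 13 of 39 sparse regions were called higher than in Tterm cells, and 5 to 9 with 1 library left out. Against aged Tterm cells 17 broad regions were called (7.28% of all regions), 14 higher (3.02%) and 3 lower (4.26%). The count was 11 without Ttad replicate 1 and 9 and 10 without Tterm replicates 1 and 2. The sparse median against Tterm was 0.71, beside 0.54 in the narrower sparse regions. Mean depth was 9494840 reads in Ttad and 13614100 in Tterm libraries, and its part was not tested. Against aged Tprog cells 4 broad regions were called (6.55% of all), which is 5.63% of the broad regions and close to that background. These were Sik3 (0.52) and Pdcd1 (0.18), higher in Ttad, and Hspa1a (-0.28) and Mocos (-0.44), lower. The count was 1 without Tprog replicate 1 and 2 without Ttad replicate 1. The 2 called higher became 1 under both other scalings.

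**Figure D4:**
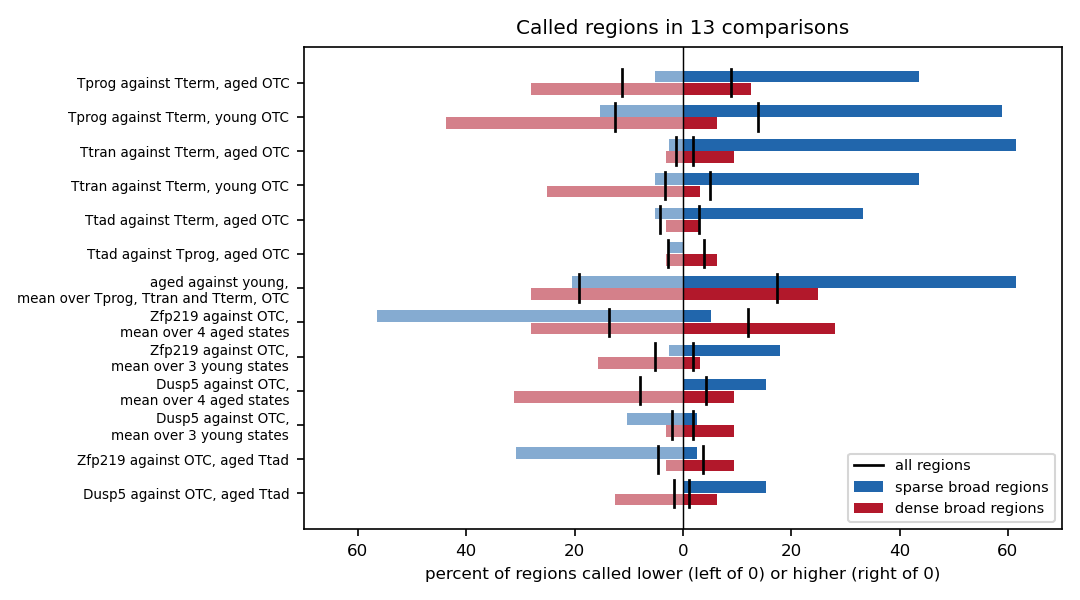
Percent of sparse (39, blue) and dense (32, red) broad regions called higher (right) or lower (left, paler) in each of 13 comparisons, with black ticks for all 53868 regions. Sparse bars pass the tick furthest on the higher side in the comparisons with Tterm and with young cells. On the lower side they pass it furthest for Zfp219 in aged hosts. They pass it by less on the higher side for Zfp219 in young hosts and for Dusp5, and on the lower side in other comparisons.

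Host age was compared in OTC cells as the mean difference over Tprog, Ttran and Tterm. It called 49 broad regions, against 36.5% of all, of which 32 were higher in aged hosts (17.3% of all) and 17 lower (19.1%). Of the sparse regions 24 were higher and 8 lower, with a median change of 0.81, and of the dense regions 8 were higher and 9 lower, with a median of -0.03. The narrower sparse regions had a median of 0.68. From group means, the sparse median was 0.48 in Tprog, 0.99 in Ttran and 0.49 in Tterm cells. Mean depth, aged against young, was 13086100 against 17006900, 8804210 against 19858300 and 13614100 against 20300800 reads in the same order. The part of depth was not tested.

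Hspa1a had the largest age difference among the dense regions. Aged OTC cells had 1877 and 1782 normalized reads in Tprog, 2017 and 1704 in Ttran and 1297 and 1223 in Tterm. Young OTC cells had 3540 and 3656 in Tprog, 4617, 4673 and 4661 in Ttran and 2980, 3076 and 3060 in Tterm. Every young library lay above every aged one, and the log2 change was -1.19 ± 0.03 (SE, adjusted p = 3.18e-52). Over all guides and states the aged libraries ran from 920 to 2639 and the young from 2980 to 4673, so they did not overlap. Within each age the state order was shared in part: Hspa1a was higher in Tprog than in Tterm cells by 0.54 ± 0.06 (aged) and 0.24 ± 0.06 (young), and higher in Ttran than in Tterm cells by 0.56 ± 0.06 and 0.61 ± 0.05. With 11 calls in the 13 comparisons it was called as often as the region at 82161231 on chromosome 18, and more often than any other broad region. This gene has near-identical copies, among which reads may be split.

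Other dense regions changed less with age. Ahnak, a gene for a large scaffold protein, had 1884 and 1845 in Tprog, 2362 and 2335 in Ttran and 2191 and 2251 in Tterm cells of aged hosts. Young cells had 1391 and 1411, 1649, 1727 and 1630, and 1825, 1628 and 1730 in the same order. All aged OTC libraries lay above all young ones, with a change of 0.42 ± 0.04. Tgif1 rose by 0.25 ± 0.03 without overlap and Foxo1 by 0.14 ± 0.04 with overlap. Kat2b fell by 0.36 ± 0.05 without overlap, and Pdcd1 by 0.16 ± 0.03 with overlap.

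Some sparse regions, such as those inside Rsph3b and near Smurf2, went against most of the others. The region inside Rsph3b had 43.0 to 91.4 normalized reads in aged OTC libraries of the 3 states and in Ttad, against 131 to 236 in young OTC libraries, a change of -1.45 ± 0.145. The region 23136 bp from Smurf2 had 171 to 222 in young OTC Ttran and Tterm libraries but 62.3 and 89.0 in young OTC Tprog, against 45.2 to 90.3 in the aged OTC libraries, a change of -1.20 ± 0.16. The region inside Smad4, a mediator of TGF-beta signalling, went with most sparse regions and had the largest rise among them. It was higher in aged than in young OTC libraries, by 1.97 ± 0.23. Aged values there were 75.1 to 156 and young values 3.17 to 56.5, so the groups did not overlap. The lowest, in young Ttran replicate 3, rested on 3 reads.

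The 5S array was lower in Tprog than in Tterm cells, by 0.25 ± 0.05 in aged and 0.44 ± 0.04 in young cells, and higher in aged than in young OTC cells, by 0.36 ± 0.03. Aged OTC Tprog libraries had 5520 and 5609 normalized reads, Ttran 5355 and 5348, Ttad 5605 and 5261, and Tterm 6753 and 6492. Young OTC Tprog libraries had 3913 and 4075, Ttran 4166, 4426 and 4271, and Tterm 5334, 5569 and 5311. Tterm was the highest state at both ages without overlap, and young Tterm libraries lay within the range of the aged libraries of the other states. The array's share of reads ran from 0.0266% to 0.0498% of a library. Its range over the 21 groups, 0.87, was the narrowest of the sparse regions, and its change between Tprog and Tterm was opposite in sign to their median. Reads of a repeated gene cannot be assigned to 1 copy.

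**Figure D5:**
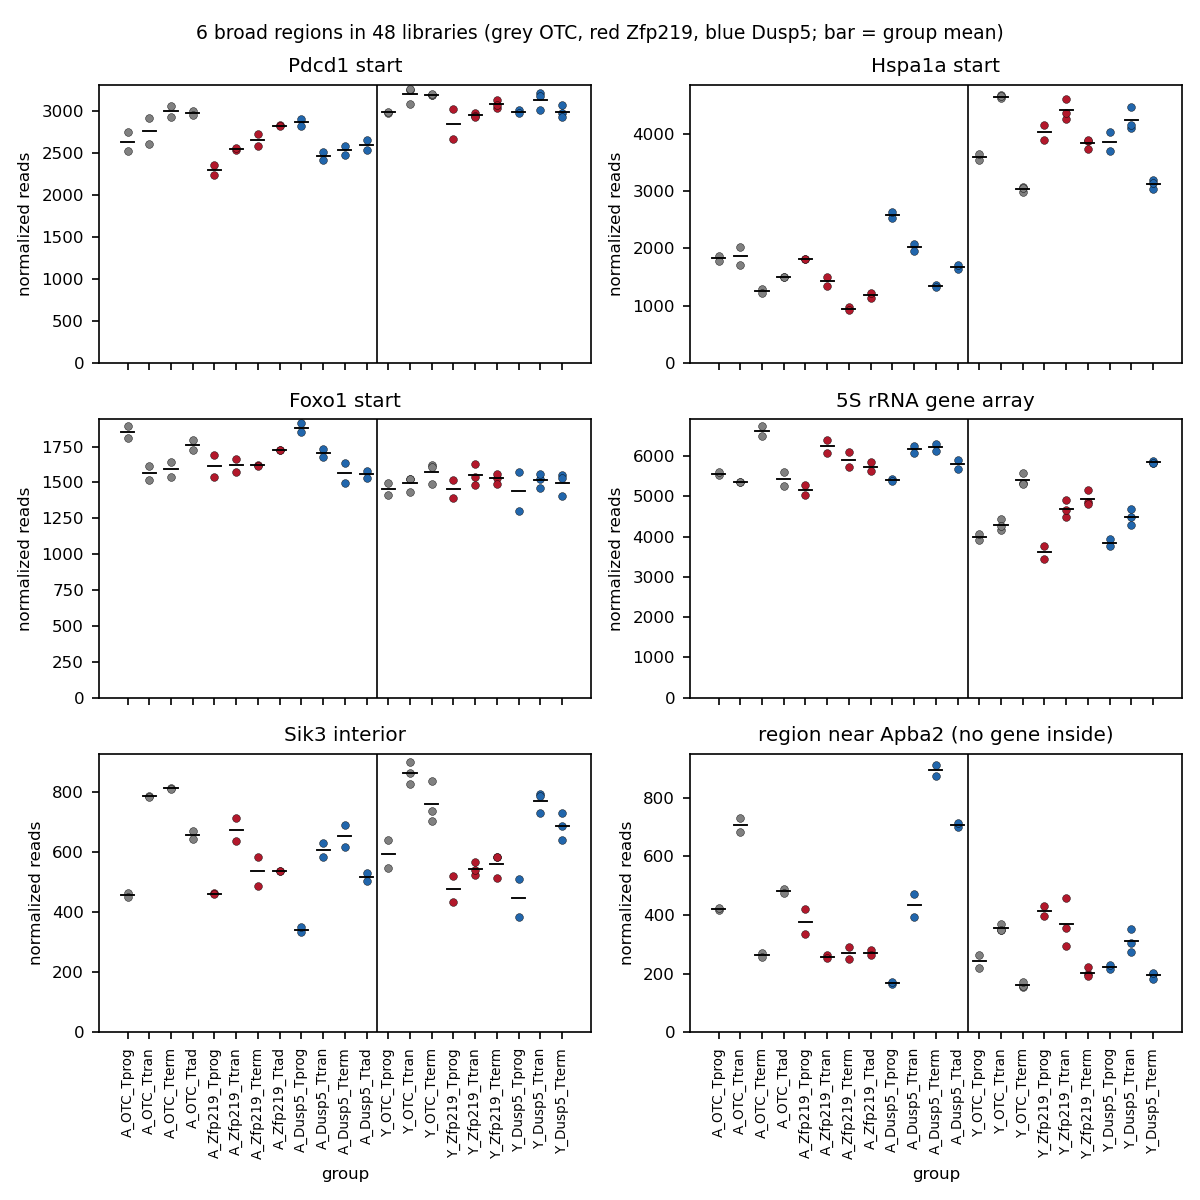
Normalized reads of 6 broad regions in each of the 48 libraries (points) with group means (bars), grey for OTC, red for Zfp219 and blue for Dusp5, aged groups left of the line and young groups right of it, each axis from 0. Hspa1a separates the ages, the 5S array is highest in Tterm among OTC groups at each age, Sik3 in Ttran is lower with both guides than with OTC at each age, and the region near Apba2 peaks in aged Dusp5 Tterm.

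With the Zfp219 guide, a guide to a zinc finger gene, aged cells had lower levels in the sparse regions. The mean difference from OTC over the 4 states called 42 broad regions, against 25.8% of all: 31 were lower (13.7% of all) and 11 higher (12.1%). Of the sparse regions 22 were lower and 2 higher, with a median change of -0.41 beside -0.43 in the narrower sparse regions, and of the dense regions 9 were lower and 9 higher. Under quantile normalization 17 were higher and 22 lower, the dense regions then being 15 higher and 4 lower. From group means, the sparse median was -1.21 in Ttran and -0.61 in Ttad, against -0.01 in Tprog and -0.09 in Tterm, with 35, 32, 22 and 23 of 39 below 0. Mean depth was 14414000 against 8804210 reads in Ttran, 15712200 against 9494840 reads in Ttad, 10976700 against 13086100 reads in Tprog and 15704200 against 13614100 in Tterm, and its part was not tested.

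The region at 82161231 on chromosome 18 had 567 and 611 normalized reads in aged OTC Ttran cells and 189 and 236 with Zfp219. It had 459 and 423 in OTC and 189 and 211 in Zfp219 Ttad cells, and 491 and 476 in OTC and 489 and 469 in Zfp219 Tprog cells. The mean change over the 4 states was -0.91 ± 0.08, with Tprog overlapping and the other 3 states not. Hspa1a fell by 0.29 ± 0.03, Sik3 by 0.28 ± 0.06 and Pdcd1 by 0.14 ± 0.03, and Pdcd1 had no overlap with OTC in any of the 4 states. Ubtf rose by 0.26 ± 0.05 and Kat2b by 0.21 ± 0.04.

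In aged Ttad cells alone, Zfp219 against OTC called 17 broad regions (8.23% of all regions): 13 lower (4.56%), 12 of them sparse, and 4 higher (3.66%). The 4 higher were Gadd45g (0.24), Kat2b (0.29), Ubtf (0.38) and Mocos (0.55). The count was 7 without OTC Ttad replicate 1 and 10 and 9 without Zfp219 Ttad replicates 1 and 2. Under quantile normalization 10 were higher and 10 lower.

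In young hosts the Zfp219 guide called 14 broad regions, against 7.07% of all. That is 19.7% of the broad regions, beside 24.1% of regions of 3000 to 4000 bp and 16.4% of narrower regions whose level was at or above the broad median. Of these 8 were higher (1.92% of all) and 6 lower (5.15%), with 11 and 4 after scaling to totals and 13 and 2 under quantile normalization. The sparse median was 0.16, beside 0.05 in the narrower sparse regions. Sik3 was lower, by 0.47 ± 0.06 on the log2 scale: Ttran libraries had 824, 862 and 898 with OTC and 524, 566 and 538 with Zfp219, and no state overlapped. The Smad4 region was higher by 1.06 ± 0.21, where the OTC values include the library of 3 reads.

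The Zfp219 effect differed between aged and young hosts, by a test of the difference over Tprog, Ttran and Tterm, in 20 broad regions (9.11% of all regions). It was lower in aged hosts in 15 (5.01% of all), 13 of them sparse, and higher in 5 (4.09%). The region near Apba2 had -0.91 ± 0.11 for this difference, and Hspa1a -0.41 ± 0.05. Hspa1a had fallen with Zfp219 in aged hosts and risen by 0.14 ± 0.03 in young ones. The sparse median of the difference was -0.48, beside -0.44 in the narrower sparse regions. Mean depth follows for Zfp219 against OTC in Tprog, Ttran and Tterm. In aged hosts it was 10976700 against 13086100, 14414000 against 8804210 and 15704200 against 13614100 reads. In young hosts it was 11405800 against 17006900, 7382480 against 19858300 and 19417000 against 20300800 reads. The part of depth was not tested.

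The Dusp5 guide, to a gene for a phosphatase of ERK, went with sparse levels that differed in sign between aged states, each given here by groups of 2 libraries. Differences within Tprog, Ttran and Tterm, and between states, were not tested. From group means, the sparse median against OTC was -0.87 in Tprog and -0.57 in Ttran, but 1.47 in Tterm and 0.46 in Ttad, with 35 and 33 of 39 differences below 0 in the first pair of states and 37 and 34 above 0 in the last pair. The narrower sparse regions had relative levels of -0.48 with Dusp5 and 0.42 with OTC in Tprog, 0.35 and 0.69 in Ttran, 1.17 and -0.05 in Tterm, and 0.85 and 0.39 in Ttad, and so shifted the same way. The mean over the 4 states, which averages these, called 19 broad regions against 12.2% of all, 9 higher (4.35%) and 10 lower (7.87%). That is 26.8% of the broad regions, beside 27.4% of regions of 3000 to 4000 bp and 23.3% of narrower regions at or above the broad median level. After scaling to totals 13 were higher and 5 lower, and under quantile normalization 12 and 2, where the dense median was 0.04 in place of -0.06. All 10 called lower were dense. Mean depth with Dusp5 was 13109000, 13348500, 9586710 and 8336860 reads in Tprog, Ttran, Tterm and Ttad, and its part was not tested.

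The region near Apba2 had this pattern in every library. It had 164 and 171 normalized reads with Dusp5 against 416 and 425 with OTC in Tprog, and 473 and 394 against 730 and 684 in Ttran. In Tterm it had 875 and 911 against 270 and 256, and in Ttad 700 and 712 against 490 and 473. The groups did not overlap in any of the 4 states, and the mean over states, 0.07 ± 0.07, was not called. Sik3 instead fell in all 4 states without overlap, by 0.36 ± 0.06 on average (adjusted p = 6.48e-07). Pdcd1 fell by 0.12 ± 0.03 on average, with 2906 and 2825 against 2517 and 2749 in Tprog, where Dusp5 was higher, and 2585 and 2478 against 2929 and 3063 in Tterm, where it was lower. Under quantile normalization its mean change was 0.01. Hspa1a rose by 0.22 ± 0.03, most in Tprog, with 2524 and 2639 against 1877 and 1782.

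In aged Ttad cells, Dusp5 against OTC called 12 broad regions (2.88% of all), 8 higher (1.21%) and 4 lower (1.67%). The count was 2 without OTC Ttad replicate 1, 7 and 4 without Dusp5 Ttad replicates 1 and 2, and 6 with those groups fitted alone. After scaling to totals 10 were higher and 1 lower, and under quantile normalization 10 and 0.

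In young hosts the Dusp5 guide called 9 broad regions (3.82% of all): 4 higher (1.8%) and 5 lower (2.02%). That is 12.7% of the broad regions, beside 13.03% of regions of 3000 to 4000 bp. Among narrower regions at or above the broad median level the share was 6.47%. The count was 5 without OTC Tprog replicate 2. Sik3 was among the lower, by 0.24 ± 0.06, so it was called lower with both guides at both ages; the comparisons at 1 age share their OTC libraries. The Dusp5 effect differed between ages in 6 broad regions, where 4% of all regions did: 4 were higher in aged hosts (1.27% of all) and 2 lower (2.73%). For Hspa1a the difference was 0.24 ± 0.05, and for Farp1 -0.38 ± 0.07.

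A region on chromosome X and one on chromosome Y rose and fell together. The first, 6441 bp at chrX:170011637-170018078, held Erdr1, annotated as a transcribed pseudogene, and the second, 6183 bp at chrY:90786460-90792643, held no annotated gene. Their group means correlated at 0.986 over 21 groups, the highest of the pairs of broad regions, and the ratio of Y to X reads ran from 0.863 to 1.14 over libraries, with a median of 1.01. Both ends lie in or near the segment that X and Y share, where reads of 1 copy can be placed on the other, so the 2 cannot be told apart. Aged Dusp5 Ttran libraries had 2363 and 2009 on X and 2286 and 2055 on Y, and young Zfp219 Tprog libraries 1264 and 1325 on X and 1215 and 1321 on Y. Both were higher with Dusp5 than with OTC, by 0.18 ± 0.04 and 0.23 ± 0.03 in aged hosts and by 0.24 ± 0.04 and 0.25 ± 0.03 in young hosts. These groups share OTC libraries within an age.

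Of the 71 regions, 1 was called in none of the 13 comparisons of states, ages and guides. That was Dusp4, whose libraries ran from 1826 to 2264 normalized reads, with 2009 and 2098 in aged OTC Tprog and 2061 and 2171 in aged OTC Tterm cells. Myc, which drives growth of activated T cells, was called in 2, lower by 0.10 ± 0.04 with Zfp219 and by 0.11 ± 0.04 with Dusp5 in aged hosts. Alcam and Ggta1 were called in 1 each. Every sparse region was called at least once. How many of all regions were called at least once was not counted, so these counts do not set broad regions apart. Single comparisons called up to 36.5% of all regions.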

How the data were processed

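The deposited table holds ATAC-seq signal: reads per region divided by 1 size factor per library, as its values show. The submitters' processing notes name Bowtie2 2.2.9, Picard 2.8.0, MACS2 2.1.1, SAMtools 1.3.1 and DESeq2 1.28.1, with build mm10 and no roles. How peaks were merged and multi-mapping reads handled was not given in the sources used here. Whole reads were recovered for 100% of values (relative tolerance 1e-06). The lowest broad region value was 2 reads.

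Genes came from the RefSeq gene table (GRCm38.p6) by position. A region was named by the gene whose start it holds, else the longest overlap, else the nearest within 100 kb. Regions were eligible to be named if among the 8 widest, densest, sparsest, most or least variable, among the 8 largest called changes in either direction of a comparison, at a listed gene, or among the 5 nearest on each side of the threshold. The text names some of these, plus regions chosen after their values were seen (Ttad and Tprog calls in full, the X and Y pair). The heat shock, CCAAT and TATA motifs were likewise added later. Members, lists and tests were chosen with earlier results of these data known.

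One limma 3.58.1 fit (R 4.3.3, trend, log2(value + 1), all 48 libraries, a mean per group, Benjamini-Hochberg adjustment over 53868 regions) gave all changes, so fold changes understate low regions. p-values measure spread between pools of mice. Each comparison was also refitted with 8 in place of 1 added before the log, without the 25% of regions of lowest mean, after scaling to totals, after quantile normalization, on the compared groups alone, with a replicate block, by edgeR 4.0.16 quasi-likelihood tests on recovered reads, and with each library left out. The code was tested on simulated data, and 0 columns of per-sample values were left unused.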

Additional observations from a re-analysis of the deposited data

Results flagged for a closer look

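The effect of a guide differed between aged and young hosts in 20 broad regions for Zfp219 and in 6 for Dusp5. The limma test was of the difference itself over Tprog, Ttran and Tterm. These are 28.2% and 8.45% of the broad regions, against 9.11% and 4% of all regions. Among regions of 3000 to 4000 bp the shares were 15.6% and 3.91%. Among narrower regions at or above the broad median level they were 13.6% and 6.19%. The column names number the libraries separately for each age, and any step done separately for these sets cannot be told apart from age.

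For Zfp219 the difference (aged minus young, log2) was negative in Smad4 (-1.48), the region at 20677622 near Gm21119 (-1.28), Hrnr (-1.27), Ttc34 (-1.22), the region at 126768890 near 4932411N23Rik (-1.19), the region at 82161231 on chromosome 18 (-1.10), Flg2 (-0.997) and the region at 20696571 near Gm21119 (-0.96). It was positive in Mocos (0.38), Tap2 (0.22), Baz2a (0.16), Ier2 (0.14) and Hivep2 (0.14). The narrower sparse regions had a median difference of -0.44, and the part of depth was not tested.

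For Dusp5 it was negative in Smad4 (-1.55) and Farp1 (-0.38) and positive in Mocos (0.53), Snx29 (0.50), Vmn1r2 (0.47) and Hspa1a (0.24). Both Smad4 values include the young OTC Ttran library with 3 reads in that region.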

How the results depend on the processing

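Of 105 counts of broad regions called (15 comparisons under 7 alternatives other than leaving out a library), 103 stayed within 1.5 times the main count. The exceptions were Dusp5 against OTC in aged Ttad, 12 in the main fit, with 6 when the compared groups were fitted alone and 7 with edgeR on recovered reads; the cause was not tested.

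Leaving out 1 library moved 19 of 169 counts, most of them in comparisons of 2 aged groups of 2 libraries each. Most of the 169 belong instead to comparisons averaged over states, with 14 to 28 libraries to leave out in turn. The counts ran from 17 to 22 (Tprog against Tterm, aged), 29 to 38 (the same, young), 16 to 21 (Ttran against Tterm, aged), 22 to 27 (the same, young), 9 to 13 (Ttad against Tterm), 1 to 4 (Ttad against Tprog) and 46 to 52 (age). They ran from 34 to 39 and 11 to 15 for Zfp219 in aged and young hosts, 15 to 21 and 5 to 10 for Dusp5, 7 to 14 and 2 to 10 for Zfp219 and Dusp5 in Ttad, and 17 to 24 and 5 to 7 for the differences between ages. These fits have fewer libraries, and a lone library is assumed to vary like the other groups. In aged OTC cells the main counts for Tprog (32), Ttran (29) and Ttad (17) against Tterm lay above their whole ranges. The same held for Zfp219 (17) and Dusp5 (12) in Ttad, so these main counts were not stable to leaving out a library. It also held for young Tprog (45) and Ttran (28) against Tterm and for Zfp219 in aged hosts (42). The other main counts lay within their ranges.

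With the replicate number as a block the counts were 31, 41, 29, 28, 17, 4, 47, 42, 14, 19, 9, 17, 12, 19 and 6, in the order in which the ranges for left-out libraries are given. The deviations of same-numbered libraries from their group means correlated at -0.060 to 0.058 over 132 aged pairs and -0.048 to 0.028 over 87 young pairs, with 0 above 0.1. In groups of 2 the deviations of the 2 libraries mirror each other, so these pairs are not all separate values. No shared deviation by replicate number was seen, but this cannot show whether same-numbered libraries shared mice. The block moved no count by over 1.5 times. In the same order, edgeR on the recovered whole reads called 35, 47, 31, 33, 21, 3, 52, 43, 15, 17, 10, 18, 7, 21 and 7.

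Of the named changes under the alternatives, 3809 kept their call, 330 lost it, 14 gained one and 2 changed sign: under quantile normalization the mean Dusp5 change in aged hosts was 0.012 in Tgif1 and 0.013 in Pdcd1. Sparse regions rest on few reads, down to 2 in a library, so their changes are the least certain.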

Other observations

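On unplaced scaffolds, 3 regions of 4969 to 45855 bp were as wide as the broad regions and took 0.376% to 1.87% of a library's normalized reads. They entered the fit and no count.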
